A study of Mus musculus with 6 samples.

Results

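The ligands, receptors and regulators of the TGF-beta pathway were followed in the kidneys of mice with chronic kidney disease (CKD) induced by cisplatin, a platinum drug that damages the kidney tubule. They are 10 genes taken by symbol from the 56691 genes counted: the ligand genes Tgfb1, Tgfb2, Tgfb3 and Bmp7, the receptor genes Tgfbr1, Tgfbr2 and Tgfbr3, and Ltbp1, Smad3 and Smad7, which store the ligand or carry and restrain the signal. All 10 genes passed the filter on low counts and were among the 15662 genes tested. Total RNA of the whole kidney was sequenced from 3 control and 3 cisplatin libraries. The animals were C57BL/6 male mice, 9 weeks old at the start. By the methods of the study, the cisplatin group received 4 intraperitoneal injections of 8 mg/kg cisplatin, the control group received the saline vehicle, and kidneys were collected at week 7. The labels give the groups as control and cisplatin induced CKD and name no allele, so that both groups differ in treatment alone as far as stated. They do not tie a library to an animal, and p-values measure the spread between these libraries, which the study calls biological replicates.

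TGF-beta is secreted in a latent form, bound to its own propeptide and to a latent TGF-beta binding protein such as Ltbp1, which anchors it in the matrix. Once freed by integrins, proteases or thrombospondin, the ligand binds the type II receptor Tgfbr2, which phosphorylates the type I receptor Tgfbr1. Tgfbr1 in turn phosphorylates Smad2 and Smad3, which enter the nucleus with Smad4, and Smad7 is induced as a feedback inhibitor of the receptor. Bmp7 signals through other receptors to Smad1, Smad5 and Smad9 and is known in the kidney for opposing TGF-beta. TGF-beta signalling is known as a driver of matrix deposition in scarring kidneys.

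In the cisplatin kidneys 6 of the 10 genes rose, 1 fell and 3 did not pass the test (edgeR quasi-likelihood F test, Benjamini-Hochberg adjusted p under 0.05 over all tested genes). The background was high: of all tested genes, 24.5% rose, 22.8% fell and 47.4% passed in either direction. All 3 receptor genes and Smad3 rose by 1.31-fold to 1.55-fold, with adjusted p of 0.0026 to 0.0042. Tgfb1 and Tgfb2 rose by 1.62-fold and 1.84-fold from low counts, with adjusted p just under the threshold. Bmp7 was the gene that fell, to 0.756 of its control level, a direction that did not hold when libraries were scaled by their totals. Tgfb3, Ltbp1 and Smad7 did not pass. The median log2 fold change was 0.53 over the 10 genes and 0.05 over all tested genes. For 5 genes (Tgfb3, Tgfbr1, Tgfbr2, Tgfbr3 and Smad3) the cisplatin libraries all lay above the control range, which held for 30.2% of tested genes, and for Bmp7 they all lay below it, which held for 27.6%.

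**Figure D1:**
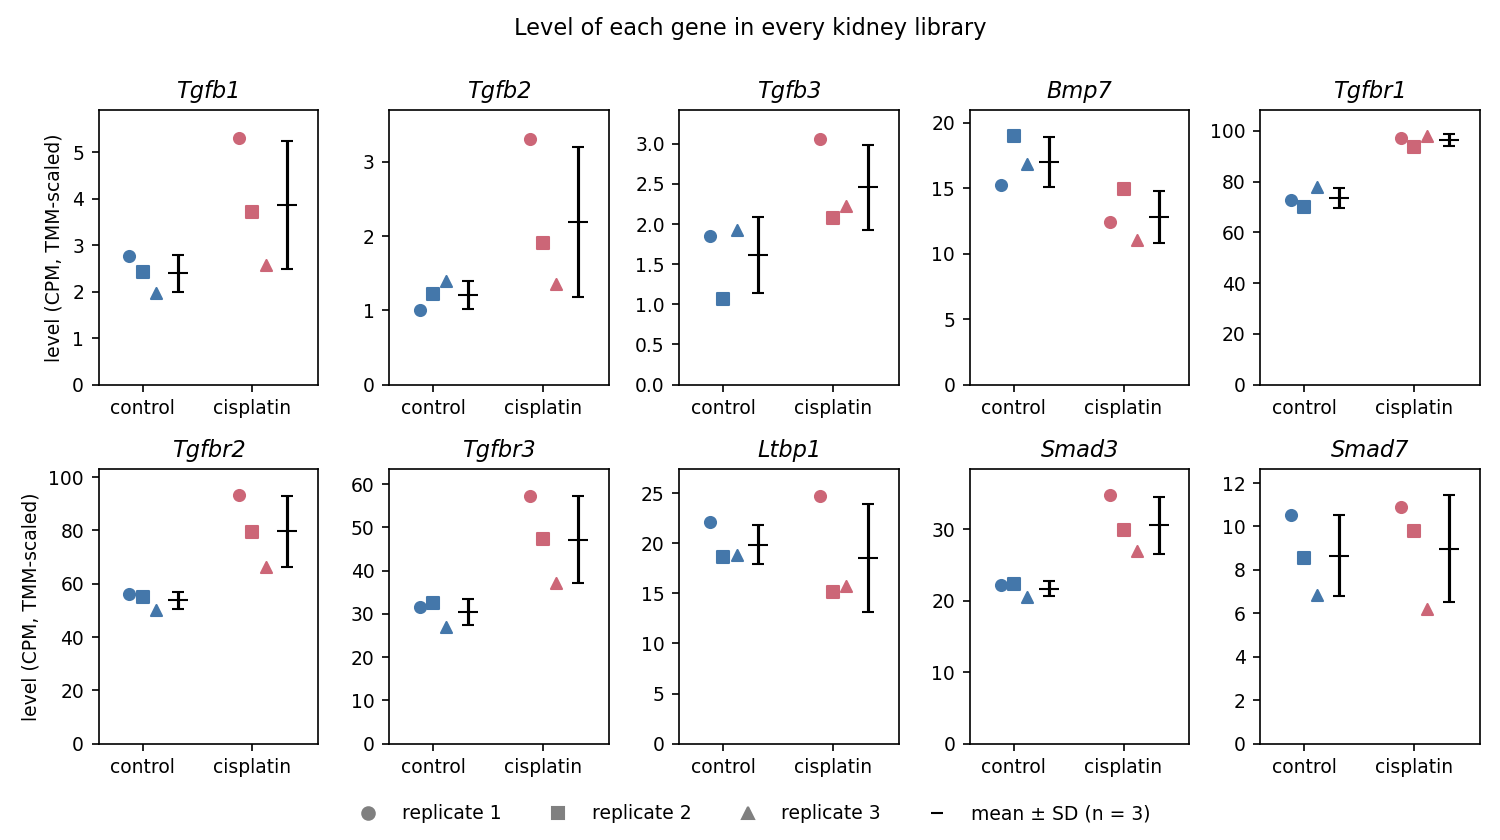
Level of the 10 genes in each kidney library, in CPM (counts scaled to library size) corrected with TMM factors, with a separate axis from 0 for each gene; symbols mark the replicate number and black marks the mean ± SD of 3 libraries. The receptor genes and Smad3 separate the groups, while Tgfb1, Tgfb2, Ltbp1 and Smad7 overlap. Cisplatin replicate 1 is the highest cisplatin library for 8 of the 10 genes, a count given for these genes only.

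The libraries held 21891855 to 26627554 counted read pairs, and 96.7% to 97.2% of stranded counts lay on the strand of the transcript. The cisplatin libraries were more heterogeneous than the control libraries. Pairs that met no annotated exon on the counted strand, introns included, took 9.32%, 6.63% and 6.09% in cisplatin libraries 1, 2 and 3. They took 4.63% to 4.86% in control. Cisplatin library 1 had the highest level of 8 of the 10 genes within its group, and cisplatin library 3 had the lowest of 7. The share of all tested genes with this order is not given here, so the order is not read as particular to the 10 genes. Kidney markers were present, but 11 of 12 proximal tubule markers fell, with a median log2 fold change of -1.08. Their summed level, to which the most abundant genes contribute most, fell further. It was 31030 to 31459 CPM in control and 4414 to 4727 CPM in cisplatin libraries. Of 12 macrophage markers 11 rose (173 to 202 CPM against 375 to 491 CPM), and of 8 fibroblast markers 6 rose and 1 fell (90.2 to 102 CPM against 143 to 195 CPM, with cisplatin library 1 the highest). Of 10 endothelial markers none rose and 4 fell (402 to 412 CPM against 297 to 360 CPM), and of 7 mural cell markers 3 rose and 2 fell (197 to 213 CPM against 194 to 259 CPM). In bulk kidney RNA, fewer cells of a type and less RNA per cell cannot be told apart. The part of these cell types in the changes of the 10 genes was not tested.

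The 3 TGF-beta ligand genes were counted at low levels. Tgfb1 (chr7:25386390-25404506, + strand, positions here and for the other genes in GRCm39) encodes the isoform most often linked to fibrosis and to immune regulation. In CPM, counts scaled to a common library size, its level was 2.77, 2.44 and 1.97 CPM in control libraries 1 to 3 and 5.30, 3.72 and 2.57 in cisplatin libraries 1 to 3, from 41 to 154 counts per library. Cisplatin libraries 1 and 2 stood above every control library, whereas cisplatin library 3 lay below control library 1. The group means were 2.39 ± 0.403 CPM and 3.87 ± 1.37 CPM (SD, n = 3), and the edgeR log2 fold change was 0.70 (SE 0.254, 95% interval 0.14 to 1.26, adjusted p = 0.0432). The call rested on single libraries: Tgfb1 no longer passed when any library other than cisplatin library 3 was left out, and without cisplatin library 1 its log2 fold change was 0.40 (edgeR adjusted p = 0.160).

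Tgfb2 (chr1:186354985-186438294, - strand) encodes the isoform that depends most on the coreceptor Tgfbr3 for binding. Its level was 1.01, 1.22 and 1.39 CPM in control and 3.31, 1.91 and 1.35 CPM in cisplatin libraries, from 24 to 96 counts per library. The groups overlapped in the same way as for Tgfb1, with cisplatin library 3 inside the control range. The means were 1.21 ± 0.193 CPM and 2.19 ± 1.01 CPM (SD, n = 3), with a log2 fold change of 0.88 (SE 0.321, 95% interval 0.17 to 1.59, edgeR adjusted p = 0.0433). Tgfb2 likewise passed without cisplatin library 3 and was lost when any of the other 5 libraries was left out, and its log2 fold change was 0.46 without cisplatin library 1 (edgeR adjusted p = 0.165).

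Tgfb3 (chr12:86102756-86126301, - strand) encodes the third isoform. It was measured at 1.85, 1.07 and 1.92 CPM in control and at 3.06, 2.08 and 2.22 CPM in cisplatin libraries, from 22 to 89 counts per library. Here the groups did not overlap, but the gap between the highest control and the lowest cisplatin library was narrow and control library 2 stood well below the other two. The log2 fold change was 0.60 (SE 0.251) with a 95% interval in fold of 1.03 to 2.23, and the adjusted p of 0.0708 (edgeR) missed the threshold. Without control library 2 the log2 fold change of Tgfb3 was 0.38 (edgeR adjusted p = 0.243), and without cisplatin library 1 it was 0.40 (edgeR adjusted p = 0.2197). On the opposite strand, 13.0% of the exon bases of Tgfb3 overlap other genes, among them Ttll5, yet at most 2 opposite-strand counts per library fell on Tgfb3.

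The composition of the TGF-beta ligand messages varied among libraries within a group. Per exon length, Tgfb1 made up 51.4%, 54.5% and 39.6% of the summed Tgfb1, Tgfb2 and Tgfb3 level in control libraries and 48.3%, 51.0% and 44.1% in cisplatin libraries. Tgfb2 took 15.2%, 22.1% and 22.7% in control and 24.5%, 21.3% and 18.8% in cisplatin libraries. The shares of the groups overlapped for each ligand. Tgfb1 held the largest share in every library. The shares depend on the length used: Tgfb1 has 5083 bases of merged exons, used here, and a longest transcript of 2573 bases.

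Bmp7 (chr2:172709805-172782410, - strand), which in the adult kidney is made mainly by distal tubule, collecting duct and podocytes, was the one ligand gene that fell. It was measured at 15.2, 19.0 and 16.8 CPM in control and at 12.4, 14.9 and 11.1 CPM in cisplatin libraries, from 254 to 446 counts per library. Every cisplatin library was below every control library, although cisplatin library 2 came within a small margin of control library 1. The means were 17.0 ± 1.89 CPM and 12.8 ± 1.97 CPM (SD, n = 3), and the log2 fold change was -0.40 (SE 0.130, 95% interval -0.69 to -0.12, edgeR adjusted p = 0.0258). The direction depended on the scaling: when libraries were scaled by their totals alone, the log2 fold change of Bmp7 was 0.03, while the median of all genes moved up by 0.43, so that Bmp7 stayed below that median. The call was also lost without control library 2, control library 3 or cisplatin library 1 (edgeR adjusted p of 0.109, 0.0593 and 0.0543). Beside this fall, 6 of 10 collecting duct markers rose and none fell (summed 249 to 276 CPM in control, 345 to 400 CPM in cisplatin), of 6 thick ascending limb markers 2 rose and 2 fell (3989 to 4282 CPM and 2738 to 3264 CPM), of 5 distal convoluted tubule markers 1 rose and 3 fell (406 to 493 CPM and 314 to 341 CPM), and of 8 podocyte markers 3 rose and none fell (185 to 197 CPM and 199 to 275 CPM). Over all tested genes 24.5% rose and 22.8% fell. The part of these cell types in the Bmp7 value was not tested.

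**Figure D2:**
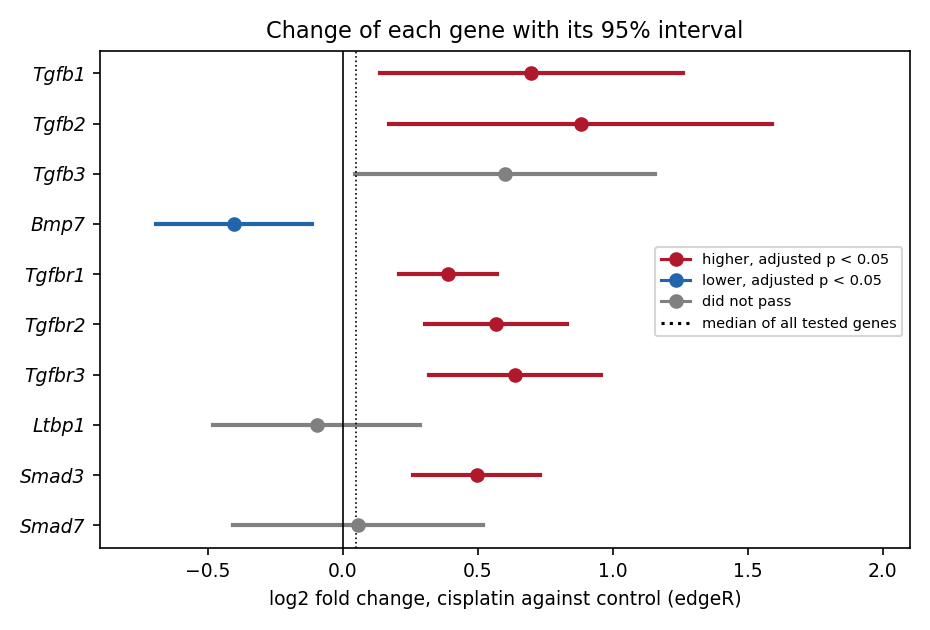
Log2 fold change of each gene, cisplatin against control, as a point with its 95% interval from edgeR; red passed as higher, blue passed as lower, grey did not pass, and the dotted line is the median of all tested genes at 0.05. The intervals of the receptor genes and Smad3 are narrower than those of the TGF-beta ligand genes, and only Bmp7 lies wholly below 0 under this scaling (0.03 with library totals).

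All 3 receptor genes rose in cisplatin kidneys. Tgfbr1 (chr4:47353134-47414931, + strand), the type I receptor kinase, was at 72.6, 70.0 and 77.8 CPM in control and at 97.3, 93.7 and 98.0 CPM in cisplatin libraries. The 3 cisplatin libraries lay close together and clear of the control range. The means were 73.5 ± 3.96 CPM and 96.3 ± 2.32 CPM (SD, n = 3), with a log2 fold change of 0.39 (SE 0.0820, 95% interval 0.21 to 0.57, edgeR adjusted p = 0.0027).

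Tgfbr2 (chr9:115913361-116004800, - strand), the type II receptor kinase that binds the ligand, was at 56.0, 55.0 and 50.2 CPM in control and at 93.1, 79.4 and 66.5 CPM in cisplatin libraries. The groups were apart, but the cisplatin libraries were spread widely, with library 1 highest and library 3 lowest. The means were 53.7 ± 3.11 CPM and 79.7 ± 13.3 CPM (SD, n = 3) and the log2 fold change was 0.57 (SE 0.119, 95% interval 0.31 to 0.83, edgeR adjusted p = 0.0026). Tgfbr3 (chr5:107249402-107437623, - strand), or betaglycan, is a coreceptor without kinase activity that presents the ligand to Tgfbr2 and can be shed to capture it. It was at 31.7, 32.4 and 26.98 CPM in control and at 57.2, 47.2 and 37.1 CPM in cisplatin libraries, the same order of cisplatin libraries as for Tgfbr2. Its means were 30.4 ± 2.96 CPM and 47.2 ± 10.02 CPM (SD, n = 3) and its log2 fold change was 0.64 (SE 0.144, 95% interval 0.32 to 0.95, edgeR adjusted p = 0.0042). A further gene on the same strand, Gm43422, shares 4.34% of the exon bases of Tgfbr3, and read pairs there could not be assigned to one of them. The calls of all 3 receptor genes held with each library left out in turn, with log2 fold changes of 0.35 to 0.43 for Tgfbr1, 0.44 to 0.65 for Tgfbr2 and 0.48 to 0.75 for Tgfbr3. None of the 3 passed the edgeR test against a 1.5-fold change, which 16% of all tested genes passed.

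The sequence before the start sites is shown for the ligand genes Tgfb1 and Tgfb2 and the receptor kinase genes Tgfbr1 and Tgfbr2. All of them were called higher with edgeR, although the calls of Tgfb1 and Tgfb2 rested on single libraries. The 250 bases before each RefSeq start site are printed 5′ to 3′ on the strand of the gene, in build GRCm38.p6, which is not the build of the counts. Capitals mark 2 motifs searched on both strands: the Smad-binding element and the GC box, which binds factors of the Sp family. The Smad-binding element is CAGAC, which reads GTCTG on the other strand. For the GC box the letters GGGCGG, or their reverse complement CCGCCC, were searched. The motifs overlap nowhere in the promoters shown.
Tgfb1 (chr7:25686752-25687001, + strand): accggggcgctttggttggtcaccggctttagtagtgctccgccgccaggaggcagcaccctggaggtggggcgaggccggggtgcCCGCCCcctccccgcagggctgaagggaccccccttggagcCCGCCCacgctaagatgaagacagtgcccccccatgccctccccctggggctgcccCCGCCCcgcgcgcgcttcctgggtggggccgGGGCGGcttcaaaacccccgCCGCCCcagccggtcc
Tgfb2 (chr1:186705990-186706239, - strand): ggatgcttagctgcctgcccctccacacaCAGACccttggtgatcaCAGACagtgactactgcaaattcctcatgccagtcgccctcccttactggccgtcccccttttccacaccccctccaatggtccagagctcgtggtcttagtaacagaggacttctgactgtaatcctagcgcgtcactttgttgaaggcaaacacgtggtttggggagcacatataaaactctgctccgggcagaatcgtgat
Tgfbr1 (chr4:47352972-47353221, + strand): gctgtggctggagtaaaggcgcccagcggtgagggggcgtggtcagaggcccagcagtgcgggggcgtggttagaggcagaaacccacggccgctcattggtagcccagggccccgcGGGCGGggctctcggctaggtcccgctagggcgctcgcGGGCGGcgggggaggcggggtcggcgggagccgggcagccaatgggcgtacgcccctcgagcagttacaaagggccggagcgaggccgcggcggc
Tgfbr2 (chr9:116175364-116175613, - strand): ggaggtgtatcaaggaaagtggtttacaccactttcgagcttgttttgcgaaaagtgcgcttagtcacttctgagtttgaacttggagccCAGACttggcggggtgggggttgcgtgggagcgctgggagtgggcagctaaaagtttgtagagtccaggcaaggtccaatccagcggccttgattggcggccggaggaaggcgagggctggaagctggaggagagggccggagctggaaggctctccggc

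The Tgfb1 promoter held 5 GC boxes and no Smad-binding element, with 75.2% G and C. The Tgfbr1 promoter printed was of the same kind, with 2 GC boxes, no Smad-binding element and 74.8% G and C. Tgfb2 and Tgfbr2 differed from them, with 2 and 1 Smad-binding elements, no GC box, and 53.6% and 58.4% G and C. A second Tgfbr1 entry of the table, at a start site further downstream (chr4:47385966-47386215, not printed), had the opposite content, with 1 Smad-binding element, no GC box and 52.8% G and C. Among the others not printed, the Smad3 promoter held 2 GC boxes and no Smad-binding element, and the 2 Ltbp1 entries held 1 and 2 Smad-binding elements and no GC box. Of 32851 promoters of the same length in the RefSeq table, 42.2% held the Smad-binding element and 32.7% the GC box, and their median G and C content was 52.4%. The table held 8 entries for 6 of the 10 genes. These matches describe letters and do not show binding.

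Smad3 (chr9:63554049-63665476, - strand), the transcription factor that carries most of the TGF-beta response to matrix genes, rose. It was at 22.3, 22.3 and 20.5 CPM in control and at 34.8, 29.9 and 27.003 CPM in cisplatin libraries, and the groups did not overlap. The means were 21.7 ± 1.01 CPM and 30.6 ± 3.97 CPM (SD, n = 3) and the log2 fold change was 0.50 (SE 0.107, 95% interval 0.26 to 0.73, edgeR adjusted p = 0.0031). With each library left out in turn Smad3 still passed, at 0.39 to 0.54.

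Smad7, the feedback inhibitor that brings ubiquitin ligases to the receptor, did not pass. Its level was 10.6, 8.57 and 6.83 CPM in control and 10.9, 9.79 and 6.19 CPM in cisplatin libraries. Both groups spanned almost the same range. The log2 fold change was 0.06 (SE 0.210, edgeR adjusted p = 0.844), and the 95% interval in fold ran from 0.754 to 1.43, which includes the 1.41-fold of Smad3.

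Ltbp1 (chr17:75312519-75699507, + strand), which binds the latent complex to matrix fibres, did not pass either. It was at 22.2, 18.6 and 18.9 CPM in control and at 24.8, 15.1 and 15.7 CPM in cisplatin libraries. Cisplatin library 1 was above all control libraries and cisplatin libraries 2 and 3 were below all of them. The log2 fold change was -0.10 (SE 0.174, 95% interval in fold 0.716 to 1.22, edgeR adjusted p = 0.667). This value was decided by cisplatin library 1, without which Ltbp1 passed as lower (log2 fold change -0.37, edgeR adjusted p = 0.0175), whereas without cisplatin library 2 it was 0.03.

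Ratios of 2 genes within a library do not depend on how libraries are scaled. They were compared between groups by two-sided exact permutation tests on log2 ratios, for which 3 against 3 libraries allow no p below 0.1. Counts of Bmp7 per count of Tgfb1 were 5.45, 7.73 and 8.45 in control and 2.33, 4.004 and 4.28 in cisplatin libraries. The mean log2 ratio fell by 1.05, from 2.83 ± 0.334 to 1.77 ± 0.480 (SD, n = 3), and the groups did not overlap (exact p = 0.1, 0.2 after Benjamini-Hochberg adjustment over 6 ratios). Counts of Ltbp1 per count of Tgfb1 were 7.93, 7.57 and 9.46 in control and 4.66, 4.06 and 6.08 in cisplatin libraries, a mean log2 difference of -0.77 with the groups apart (exact p = 0.1, adjusted 0.2).

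Counts of Smad7 per count of Smad3 were 0.474, 0.385 and 0.333 in control and 0.314, 0.328 and 0.230 in cisplatin libraries. The groups were apart by a narrow margin, with a mean log2 difference of -0.45 (exact p = 0.1, adjusted 0.2). The ratios of Tgfbr2 to Tgfbr1, of Tgfbr3 to Tgfbr2 and of Tgfb2 to Tgfb1 overlapped between the groups, with mean log2 differences of 0.16, 0.06 and 0.12 (exact p of 0.4, 0.4 and 0.7). With single libraries left out, Tgfb2 to Tgfb1 ran from -0.11 (without control library 1) to 0.36 (without control library 3), and Tgfbr2 to Tgfbr1 from 0.05 (without cisplatin library 1) to 0.30 (without cisplatin library 3). For the ratio of Tgfbr3 to Tgfbr2 the libraries were close in both groups, at 0.538 to 0.590 in control and 0.559 to 0.614 in cisplatin.

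**Figure D3:**
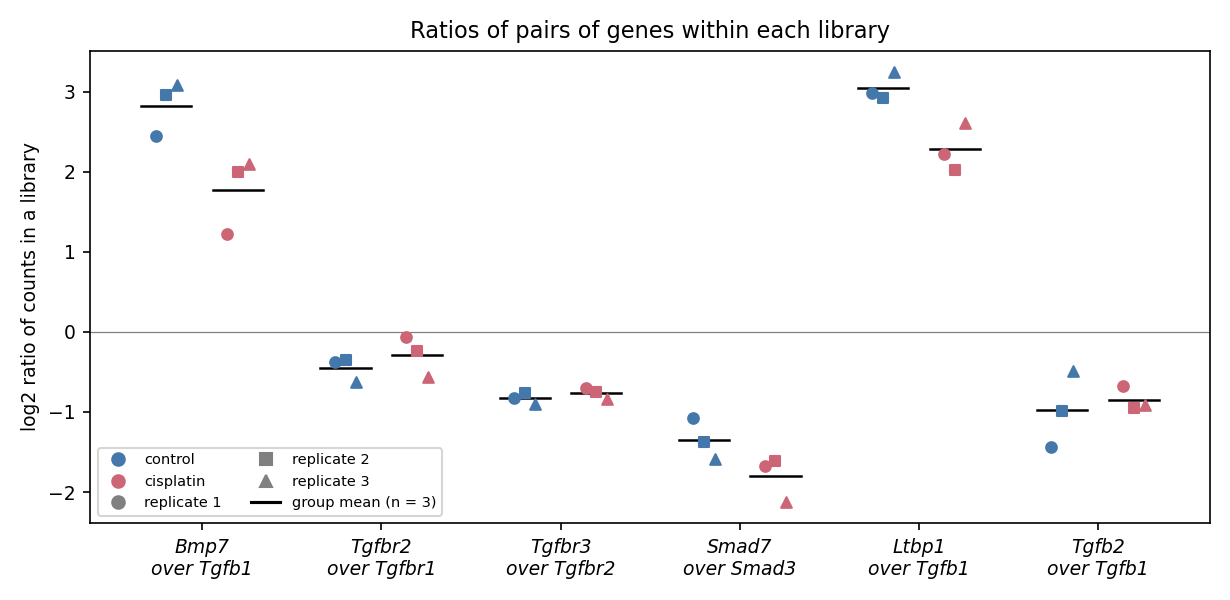
Log2 ratio of the counts of 2 genes within each library, by pair on the horizontal axis, control in blue and cisplatin in red, with black lines for the mean of 3 libraries. Bmp7 over Tgfb1, Ltbp1 over Tgfb1 and Smad7 over Smad3 lie lower in every cisplatin library than in any control library, and the other 3 pairs overlap.

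Levels of different genes were compared only after division by exon length, in CPM per kb of merged exons. In control kidneys the receptors led, with Tgfbr1 at 11.1 ± 0.599, Tgfbr2 at 6.11 ± 0.353 and Tgfbr3 at 4.44 ± 0.432 CPM per kb (SD, n = 3), followed by Bmp7 at 3.85, Smad3 at 3.75, Ltbp1 at 1.85 and Smad7 at 1.82 CPM per kb. The TGF-beta ligands came last, with Tgfb1 at 0.471, Tgfb3 at 0.310 and Tgfb2 at 0.193 CPM per kb. Neighbours whose ranges overlapped in control were Tgfbr3 and Bmp7, Bmp7 and Smad3, Ltbp1 and Smad7, and Tgfb3 and Tgfb2. In cisplatin kidneys the order was Tgfbr1 (14.5), Tgfbr2 (9.06), Tgfbr3 (6.89), Smad3 (5.28), Bmp7 (2.90), Smad7 (1.89), Ltbp1 (1.73), Tgfb1 (0.760), Tgfb3 (0.471) and Tgfb2 (0.3499), all in CPM per kb. Bmp7 and Smad3 overlapped in control and were separate in cisplatin, with Smad3 the higher. Neighbours that overlapped in cisplatin were Tgfbr2 and Tgfbr3, Tgfbr3 and Smad3, Smad7 and Ltbp1, Tgfb1 and Tgfb3, and Tgfb3 and Tgfb2. Smad7 and Ltbp1 changed places with merged exons, but not with the length of the longest transcript, by which Ltbp1 was above Smad7 in control (2.96 and 1.92 CPM per kb, ranges apart) and in cisplatin (2.76 and 1.99 CPM per kb, ranges overlapping).

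**Figure D4:**
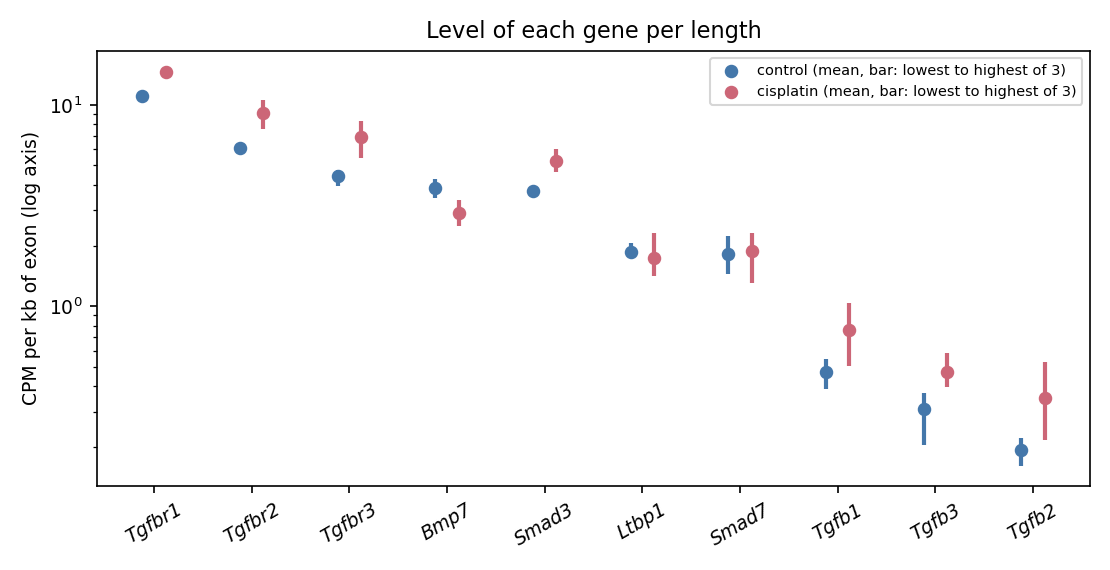
Level of each gene per kb of merged exons on a log axis, in the order of the control means; points are group means and bars run from the lowest to the highest of 3 libraries. The receptors lie highest and the TGF-beta ligands lowest in both groups, and the bars of Smad3 and Bmp7 overlap in control but not in cisplatin.

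The rest of the pathway was read from 8 lists with 127 genes, of which 105 were tested, 54 rose and 8 fell, beside 24.5% higher and 22.8% lower over all tested genes. Scaled by library totals alone, 80 of them were called higher and 4 lower, while 8508 of all tested genes were higher and 1375 lower. With TMM factors, the median log2 fold change of the 105 tested genes was 0.46, beside 0.05 over all tested genes. Of 15 genes for storage and activation of latent TGF-beta, 13 were tested, 7 rose and 2 fell. The proteases Mmp2 and Mmp14 rose from 4.14 ± 0.417 to 21.2 ± 6.79 CPM and from 4.76 ± 0.236 to 22.3 ± 7.62 CPM (SD, n = 3), log2 fold changes of 2.36 and 2.23. Thbs1, or thrombospondin, an activator of the latent complex, rose by 1.46 on the log2 scale, from 52.8 ± 3.33 to 145 ± 33.0 CPM. Ltbp2, a matrix protein related to Ltbp1 that does not itself bind latent TGF-beta, rose by 3.73 on the log2 scale, from 0.199 to 2.69 CPM. Of the integrin chains listed, the beta chains Itgb6 and Itgb8 fell and the alpha chain Itgav, which pairs with both, rose. Itgb6 fell from 192 ± 7.39 to 112 ± 16.1 CPM (log2 fold change -0.78). Itgb8, with the highest mean CPM of this list when not divided by length, fell from 239 ± 8.44 to 163 ± 0.718 CPM (-0.55). Itgav, named after its values were seen, rose from 153 ± 4.04 to 203 ± 33.4 CPM (0.41, edgeR adjusted p = 0.0141).

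Of 23 other ligands of the superfamily 13 were tested, 7 rose and none fell. Gdf15, a stress-induced circulating factor, rose from 1.76 ± 0.509 to 13.7 ± 4.45 CPM (log2 fold change 2.97), and Bmp3, a ligand that antagonizes BMP signals, from 2.01 ± 0.360 to 7.39 ± 0.536 CPM (1.87). Bmp6, which like Bmp7 signals through the BMP receptors, rose from 23.2 ± 1.38 to 35.5 ± 0.990 CPM (0.62), and Gdf11 rose by 0.88 on the log2 scale. These 4 were chosen for the smallest adjusted p, so that their passing was given by the choice. Their cisplatin libraries lay above the control range, which held for 30.2% of all tested genes. Among 9 tested genes of 11 other receptors, 3 rose and none fell, namely the type I receptors Bmpr1a (0.32), Bmpr1b (0.74) and Acvrl1 (0.39, all log2 fold changes). The count of 3 of 9 is near the 24.5% of all tested genes that rose. It was 7 when libraries were scaled by their totals, 1 without control library 3 and 5 without cisplatin library 3. Over all tested genes the number that rose in these fits was 8508, 3000 and 4045. The type II BMP receptor Bmpr2 had the highest mean CPM of these receptors, not divided by length. It was at 90.8 ± 6.38 CPM in control and 102 ± 23.9 CPM in cisplatin and did not pass (log2 fold change 0.17, edgeR adjusted p = 0.359).

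Of 15 other Smads and Smad partners 14 were tested, 3 rose and 3 fell, shares near the 24.5% and 22.8% of all tested genes. Scaled by library totals 9 were higher and 1 lower, beside 8508 and 1375 of all tested genes. With upper-quartile factors 5 were higher and 3 lower, beside 4774 and 2890 of all tested genes. The 3 that rose were Smad1 and Smad5 of the BMP branch (log2 fold changes 0.93 and 0.31) and Smad2 of the TGF-beta branch. Smad2 rose by 0.25 on the log2 scale, from 34.0 ± 0.857 to 40.4 ± 1.06 CPM. Smad9, also of the BMP branch, did not pass (log2 fold change 0.63, edgeR adjusted p = 0.138). The 3 that fell were endocytic adaptors or anchors of receptor and Smad: Dab2, also an adaptor for receptor uptake in the proximal tubule, fell from 277 ± 10.3 to 156 ± 10.6 CPM (-0.83), Zfyve16 by 0.45 and Zfyve9 by 0.37 on the log2 scale. The number that rose was 1 without control library 3 and 5 without cisplatin library 3, beside 3000 and 4045 of all tested genes. All 12 intracellular inhibitors were tested, 5 rose and 1 fell. Those named are Tgif1 (0.58), Tgif2 (1.13), the ubiquitin ligase Smurf1 (0.69) and the pseudoreceptor Bambi (0.52), which rose, and Smurf2, a second ligase of the same family, which fell from 55.4 ± 2.79 to 36.1 ± 3.04 CPM (-0.62). Of the inhibitors 11 rose and none fell when libraries were scaled by their totals, beside 8508 and 1375 of all tested genes. Without control library 1 or control library 3 the number that rose was 3, beside 3079 and 3000 of all tested genes. Without cisplatin library 3 the number that fell was 2, beside 4180 of all tested genes. Ppm1a, a phosphatase of Smads, had the highest mean CPM of this list, not divided by length. It was at 58.7 ± 0.450 and 57.2 ± 1.21 CPM and did not pass (log2 fold change -0.04, edgeR adjusted p = 0.713).

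Of 21 extracellular antagonists and modulators 17 were tested, 11 rose and 2 fell, with a median log2 fold change of 0.60. Decorin (Dcn) and biglycan (Bgn), matrix proteoglycans that bind TGF-beta, rose from 27.99 ± 4.05 to 83.8 ± 10.1 CPM (log2 fold change 1.58) and from 71.0 ± 5.17 to 161 ± 60.5 CPM (1.18). The activin antagonist Fst rose by 2.14, Fstl1 by 1.04 and the BMP antagonist Nbl1 by 1.98 on the log2 scale. The BMP antagonist Chrdl1 fell from 8.44 ± 0.717 to 1.13 ± 0.426 CPM (-2.93), and the secreted protease Htra1 from 85.8 ± 1.99 to 50.6 ± 4.05 CPM (-0.76).

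Genes known as targets of TGF-beta had the highest median of the 8 pathway lists, at a log2 fold change of 0.88, beside medians of 1.71 for the macrophage markers and 0.82 for the fibroblast markers. Of 22 listed, 21 were tested, 16 rose and none fell, and their summed level was 482 to 580 CPM in control and 1235, 854 and 748 CPM in cisplatin libraries 1, 2 and 3. Tgfbi, a matrix protein named for its induction, rose from 9.21 ± 1.22 to 26.1 ± 5.31 CPM (1.503). Timp1, an inhibitor of matrix metalloproteases, was near 0 in control at 0.126 ± 0.1404 CPM and reached 5.08 ± 1.48 CPM (5.30). Sphk1, a lipid kinase, rose by 1.59. Col4a1, a basement membrane collagen with the highest mean CPM of the list when not divided by length, rose from 213 ± 19.0 to 336 ± 87.7 CPM (0.66). Of 8 BMP targets 6 were tested, 2 rose and none fell. The count of 2 of 6 is near the 24.5% of all tested genes that rose. With upper-quartile factors 4 of the 6 rose, beside 4774 of all 15662 tested genes, and with library totals 5, beside 8508. Id1 rose from 9.33 ± 0.893 to 19.2 ± 3.20 CPM (1.04) and Id3 from 18.3 ± 1.03 to 34.4 ± 8.395 CPM (0.91). Id2, at 148 ± 9.38 and 157 ± 11.8 CPM, did not pass (0.09, edgeR adjusted p = 0.474). Many of these targets are made by fibroblasts and mural cells, whose summed marker levels are given above, and the part of those cells was not tested.

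**Figure D5:**
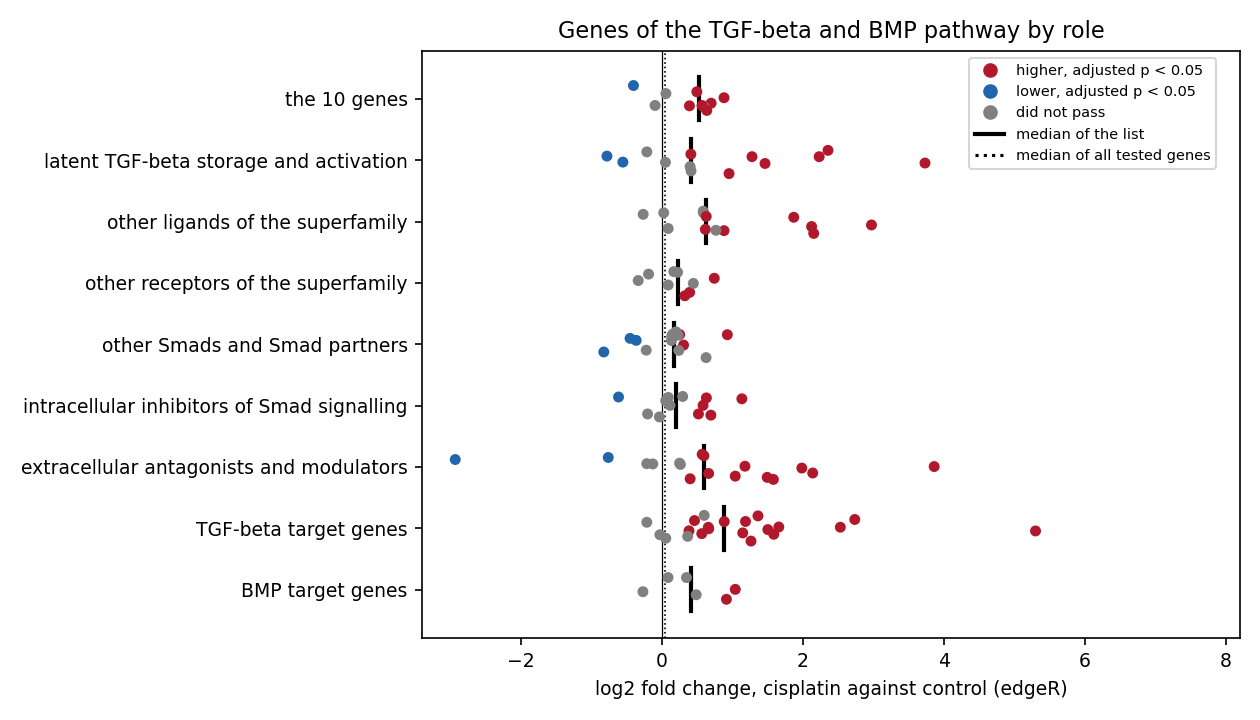
Log2 fold change, cisplatin against control, of each tested gene of the pathway by role, 1 point per gene, red for genes that rose, blue for genes that fell and grey for those that did not pass; black bars are list medians and the dotted line is the median of all tested genes. The targets of TGF-beta have a median of 0.88 and none of them fell, while the Smads with their partners and the inhibitors have medians of 0.18 and 0.20.

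The genes whose pattern over the 6 libraries was closest to that of each gene were found among 8415 protein-coding genes by the root mean square difference of log2 CPM, each centred on its control mean. The closest were Zfp958 for Tgfbr1 (difference 0.0220), Cdc42ep1 for Tgfbr2 (0.0329), Smurf1 for Tgfbr3 (0.0452), Serinc5 for Smad3 (0.0310), Prkcsh for Bmp7 (0.0544) and Tmem245 for Ltbp1 (0.0663). Marveld1 was second closest for both Tgfbr2 (0.0337) and Tgfbr3 (0.0544). For the TGF-beta ligands the differences were larger, at 0.0937 for Tgfb1 with Lamc1, a laminin chain, 0.151 for Tgfb2 with Ripor1 and 0.129 for Tgfb3 with Pgd, and for Smad7 it was 0.108 with Zmiz2. All these values share the same 6 libraries and are given as a description.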

How the data were processed

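Read pairs of total kidney RNA (stranded library kit) were trimmed with Cutadapt and aligned to mm39 (GRCm39) with STAR by the authors, who deposited raw counts per gene for each library. The study lists tool versions without tying them to these libraries, and the annotation release is not given in its methods. Titles put 3 of the 6 libraries in each group. The counts on the strand of the transcript were used, and rows that name no gene were left out of library sizes. Pairs that met no annotated exon on the counted strand took 4.63% to 9.32% of all pairs, and ambiguous pairs 1.20% to 2.01%. Libraries of a group varied beyond counting error (chi-square per gene of 4.70 to 6.87 in control and 13.5 to 40.9 in cisplatin). No fit dropped or imputed a library unless stated.

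Counts were fitted over all genes with edgeR 4.0.16 (R 4.3.3; filterByExpr with a minimum count of 10 and a minimum total of 15, TMM factors, quasi-likelihood F test) and adjusted by the Benjamini-Hochberg method at 0.05. CPM use TMM-scaled library sizes, and log2 CPM a prior count of 2. Ratios used counts plus 0.5. Intervals are at 95%. Exon lengths and positions came from GENCODE vM39 (GRCm39), and promoters from a RefSeq table (GRCm38.p6). The fit was also run on simulated counts in which few genes changed, unlike in these data. That run did not probe the choice of scaling, and no result here rests on it. Alternatives were DESeq2 1.42.0, limma-voom (limma 3.58.1), other scalings and filters, counts ignoring strand, a replicate block, a test against 1.5-fold and leaving out each library.

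The 10 genes, the 8 pathway lists and the 16 marker lists were chosen with earlier results of these data known. All 10 genes are named. From each pathway list, up to 4 genes per direction with the smallest adjusted p and the gene with the highest mean CPM were named, and for each of the 10 genes the 2 protein-coding genes nearest in profile, among genes whose mean log2 CPM was 3 or more. 1 gene that this rule names is not reported here. Protein sequences were not used here.

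The marker lists not described with the results were as follows, beside 24.5% higher and 22.8% lower over all tested genes. Of 8 T cell markers 5 were tested and 4 rose (summed 2.74 to 3.36 CPM in control, 5.32 to 6.85 CPM in cisplatin). Of 6 B cell markers 2 were tested and 1 fell, of 6 neutrophil markers 3 were tested and 2 rose (Ly6g at 0), and of 5 platelet markers 3 were tested, 1 rose and 1 fell (Gp1bb at 0). None of 5 erythroid markers and not the 1 tested of 5 adrenal markers was called (Cyp11b2 at 0), and of 5 fat markers 4 were tested and 1 fell (Lep at 0).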

Additional observations from a re-analysis of the deposited data

How the results depend on the processing

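Of the 16 alternatives, Tgfbr1, Tgfbr2, Tgfbr3 and Smad3 kept direction and call in 15 each, all but the test against a 1.5-fold change, with adjusted p of at most 0.0254. That test called 0 of the 10 genes higher and 0 lower, 31 pathway genes higher and 2 lower, and over all genes 1396 higher and 1114 lower against 3841 and 3578. Tgfb1 and Tgfb2 lost their calls in 7 alternatives each, among them limma-voom (adjusted p of 0.0659 and 0.0738), and Tgfb3 gained one in 5 (adjusted p of 0.0137 to 0.0398). Scaled by library totals alone, the median of all genes moved up by 0.43, 8508 genes were higher and 1375 lower, 7 of the 10 genes and 80 pathway genes were called higher, 0 of the 10 genes and 4 pathway genes lower, and the log2 fold changes of Bmp7 and Ltbp1 turned to 0.029 and 0.34, both below the new median of 0.48. With upper-quartile factors 0 of the 10 genes were lower, and 4774 genes were higher and 2890 lower over all genes. Leaving out single libraries gave 4 to 6 of the 10 genes higher and 0 to 1 lower, and 44 to 60 pathway genes higher and 8 to 10 lower. Over all genes, 15804 to 16189 tested, these fits gave 3000 to 4045 higher and 2902 to 4180 lower. Without single libraries Ltbp1 ran from -0.37 to 0.033 and Smad7 from -0.10 to 0.22. Ltbp1 turned sign without cisplatin replicate 2 (0.033), and Smad7 was -0.10, -0.01 and -0.09 without cisplatin replicate 1, cisplatin replicate 2 and control replicate 3. The cause of these changes was not tested. The log2 ratios of gene pairs moved by less than the SD pooled over both groups in every alternative run, but Tgfb2 over Tgfb1 turned from 0.12 to -0.11 without control replicate 1.

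The replicate numbers of the labels do not pair libraries by any stated animal or batch. Same-numbered libraries deviated with correlations of 0.133, 0.142 and 0.0997, and 6 of 6 libraries correlated best with their own number. This is a weak hint from the data and not from the design. The matches are not independent, because deviations within a group cancel out and both groups use the same correlations. No chance level was set for them. With the number as a replicate block, 7 of the 10 genes were higher (Tgfb3 added) and 1 lower, 57 pathway genes were higher and 8 lower, and 4087 genes were higher and 3796 lower over all genes. Tgfb1, Tgfb2 and Tgfb3 had 22 to 154 counts per library, and Tgfb1 and Tgfb2 had coefficients of variation of 35.5% and 46% among cisplatin libraries.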
